A study of Homo sapiens with 6 samples.

Results

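Among the genes that TGFβ raised within 3 days in H2087-LCC cells, a minority had about the same mean level at 7 days as at 3 days. No library was taken between these days, so the course between them is unknown. These genes were chosen by their measured values. On the scale log2(normalized count + 1), a gene was a member if its mean over the 6 libraries was at least 50 normalized counts, its 3-day TGFβ mean was above its SB mean by more than 1.2, and its 7-day mean lay within 0.3 of its 3-day mean. The rule was met by 77 of the 21293 genes in the table. H2087-LCC cells are latency competent cancer cells, a dormant metastatic derivative of a human lung adenocarcinoma (LUAD) cell line. They were treated for 3 days with 2.5 μM SB505124 (SB), which inhibits the TGFβ type I receptor and sets the baseline, for 3 days with 100 pM TGFβ, or for 7 days with TGFβ at the same dose, with 2 libraries per group. The paired libraries are technical replicates by the study's own description, so the SDs, intervals and tests below measure only the spread between such libraries. No SB library was labelled as 7 days, and time in culture and longer TGFβ exposure therefore cannot be told apart in any comparison with the 7-day libraries. In bulk RNA, fewer cells that use a gene and less RNA per cell cannot be told apart either.

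TGFβ binds a complex of type II and type I receptors, which phosphorylates SMAD2 and SMAD3. With SMAD4 these enter the nucleus and act together with other transcription factors on target genes. Part of the response restrains the pathway itself, by inhibitory SMADs and by secreted proteins that bind ligands of the TGFβ family, and in epithelial cells another part changes matrix, adhesion and the cytoskeleton as the cells pass through an epithelial-to-mesenchymal transition (EMT).

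The normalized counts summed to between 34306283 and 36340734 per library. Epithelial keratins fitted the label of the cells: KRT8 lay between 33341 and 42692, KRT18 between 31757 and 50793 and KRT19 between 3785 and 6809 in the 6 libraries. Other listed markers moved with TGFβ. EPCAM had 10180 and 9106 in SB and 2988 and 3277 at 7 days. NAPSA had 99 and 234 in SB and 5 to 9 with TGFβ, and SOX2 1552 and 2658 against 569 to 1049. KRT7 went up, from 5860 and 6183 in SB to between 11230 and 18905. Markers of leukocytes (PTPRC, CD3E), fibroblasts (DCN, LUM) and erythroid cells (HBB) had normalized counts of 4 or less in every library. The other markers of such cells were mostly low, with PDGFRA at 16 or less, CDH5 and VWF at 20 or less, CD14 at 8 or less, PECAM1 between 36 and 67, COL1A1 between 196 and 581 and CD68 between 4368 and 5113; their part in the results was not tested. NKX2-1, a lung lineage factor, had 2784 and 2908 in SB and between 712 and 857 with TGFβ. The SB libraries differed from each other more than the TGFβ pairs did: SFTPB, a surfactant protein of alveolar cells, had 1104 and 8273 normalized counts in SB and 24 or less with TGFβ, and CDH1 (E-cadherin) had 371 and 635 in SB and 28 or less with TGFβ. Of the members, 56 were higher in SB replicate 1 than in replicate 2 and 20 were lower, against 53.7% higher among the 11389 genes averaging 100 or more. The median absolute difference between the SB libraries was 0.27 (log2) for the members and 0.14 for those genes.

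Of the 373 genes past the rise threshold, 77 (20.6%) levelled off, 251 (67.3%) were higher at 7 days by 0.3 or more, and 45 (12.1%) were lower by 0.3 or more. The plateau was thus the less common course, with more than 3 genes that went on rising for each gene that levelled off.

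**Figure D1:**
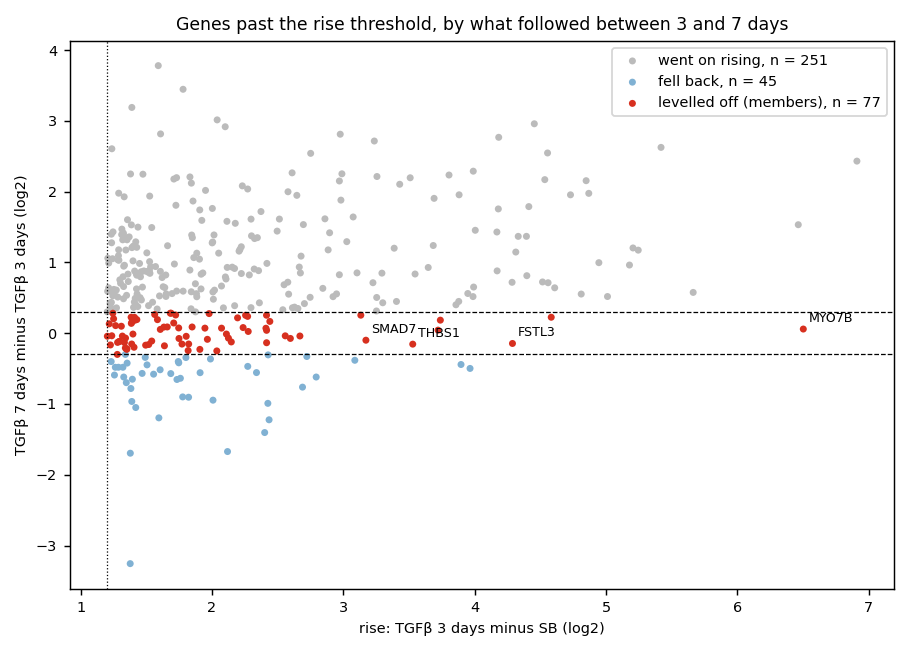
Each point is 1 of the 373 genes whose mean reached 50 normalized counts and whose rise passed 1.2 (dotted line); the x axis is the 3-day TGFβ mean minus the SB mean and the y axis the 7-day mean minus the 3-day mean, both in log2. The 77 members (red) fill the band between the dashed lines at -0.3 and 0.3, with 251 genes above it (grey) and 45 below (blue).

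The rise of the members ran from 1.203 to 6.501 (log2), with a median of 1.71, against a median of -0.02 over the 14395 genes tested. It was 2 or more in 26 members, 3 or more in 8 and under 1.5 in 28. Relative to SB the members stood at a median of 1.75 at 7 days. No member had overlapping SB and 3-day libraries, and 1 (FOS) had overlapping SB and 7-day libraries. In the limma fit, 76 of the 77 members were called higher at 3 days than in SB, where 14.9% of all tested genes were called higher, and 76 were called higher at 7 days than in SB, where 27.7% were. The rule uses these contrasts, so the counts describe the choice and are no evidence of it. Both comparisons share the SB libraries. FOS was the member not called in either.

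The members were spread over the range of expression: the median of their means was 892 normalized counts (774 for all genes tested), and 18 had a mean under 200.

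**Figure D2:**
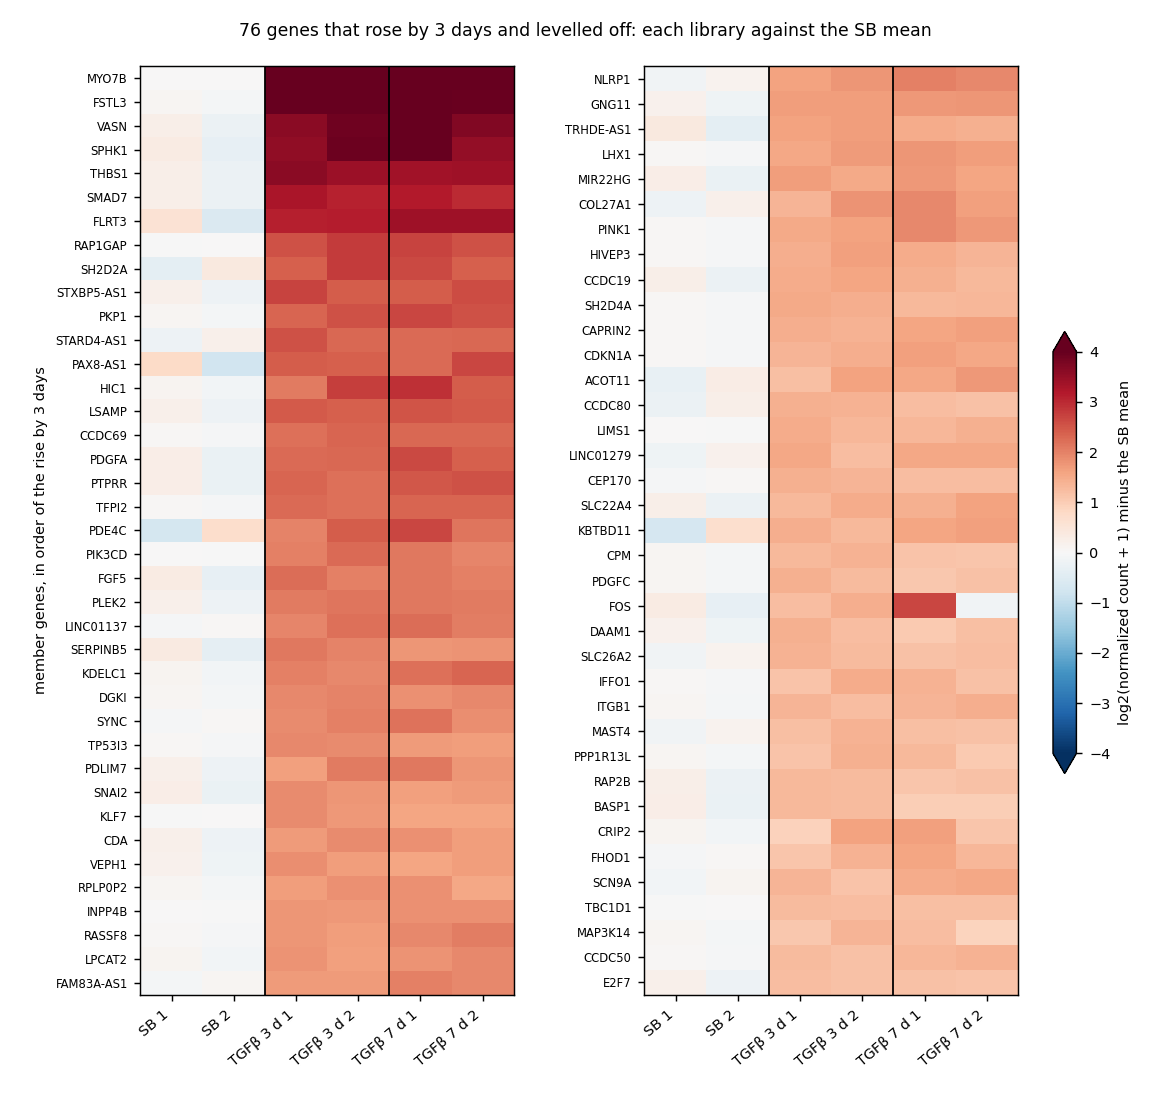
Each row is a member gene (76 plotted), ordered by its rise, and each column a library; the colour is log2(normalized count + 1) minus the SB mean of that gene, cut at 4. The 4 TGFβ columns are alike within a row for nearly all members, with FOS at 7 days as the clearest exception (991 and 140 normalized counts), and the SB columns differ visibly for PAX8-AS1, FLRT3, PDE4C and KBTBD11.

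Feedback of the pathway was the role of a pair of members. SMAD7, the inhibitory SMAD that blocks the activated type I receptor, had 112 and 79 normalized counts in SB, 916 and 799 at 3 days and 854 and 747 at 7 days. FSTL3, a secreted protein that binds activins and related ligands, had 172 and 152 in SB, 2942 and 3427 at 3 days and 3247 and 2539 at 7 days. Both stood well above SB in all 4 TGFβ libraries, at 8.98 and 19.7 times the SB mean at 3 days, and the ranges of their 3-day and 7-day libraries overlapped. VASN, a membrane protein known to bind TGFβ, had 38 and 27 in SB, 399 and 485 at 3 days and 580 and 431 at 7 days, again with overlapping TGFβ groups. Of the 45 tested ligands, receptors, SMADs and feedback genes of the pathway list, 20 were called higher and 5 lower at 3 days, and 21 were called higher and 4 lower at 7 days than at 3 days, with 2 members on the list and 9 genes that rose early and went on rising. Over all genes tested, 14.9% were called higher and 14.0% lower at 3 days, and 17.0% were called higher and 16.2% lower at 7 days than at 3 days, the background for the counts of this list and of the other lists.

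Secreted and matrix proteins held some of the abundant members. THBS1, thrombospondin, a matrix glycoprotein that can activate latent TGFβ, had 5543 and 4052 in SB, 58242 and 51318 at 3 days and 48951 and 49270 at 7 days. Here both 7-day libraries were the lower ones. TFPI2, a secreted protease inhibitor, had 1017 and 933 in SB, 4686 and 4503 at 3 days and 4863 and 4845 at 7 days, with both 7-day libraries slightly above the 3-day ones.

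Per kb of all annotated exons of a gene merged, THBS1 stood at 5982 normalized counts at 3 days, PLEK2 at 3819, ITGB1 at 3422 and BASP1 at 2849. Merged exons can be much longer than 1 transcript. ITGB1 has 14561 bases merged and 5614 in its longest transcript, and THBS1 has 9158 and 7789. The order of these genes is therefore not read. COL27A1, a fibrillar collagen chain, was the only member on the list of collagen chains. It had 717 and 967 normalized counts in SB, 2150 and 2904 at 3 days and 3152 and 2583 at 7 days. Of the 24 tested collagen chains, 10 were called higher at 3 days and 1 lower, and 6 rose early and went on rising. SERPINB5 (maspin), an epithelial serpin, had 1146 and 693 in SB, 3811 and 3512 at 3 days and 3050 and 3101 at 7 days. Among the 53 tested proteases and protease inhibitors, 25 were called higher and 6 lower at 3 days, 28 were called higher and 5 lower at 7 days than at 3 days, and 11 rose early and went on rising, against 2 members.

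Growth factors contributed PDGFA, PDGFC and FGF5. PDGFA, a ligand of the PDGF receptors, had 302 and 211 in SB, 1209 and 1235 at 3 days and 1570 and 1322 at 7 days. PDGFC, a further ligand of those receptors, had 828 and 744 in SB, 2119 and 1892 at 3 days and 1651 and 1774 at 7 days. FGF5, a fibroblast growth factor, had 213 and 132 in SB, 796 and 678 at 3 days and 725 and 676 at 7 days. Both 7-day libraries of PDGFA were above and both of PDGFC below the 3-day libraries, but neither difference between the days passed the test (limma, adjusted p = 0.274 and 0.122), and the 2 genes were not compared with each other. The 56 tested growth factors, cytokines and chemokines were split between directions, with 18 called higher and 17 lower at 3 days.

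Adhesion and cytoskeleton were represented by ITGB1, LIMS1, PDLIM7, DAAM1, FHOD1 and others. ITGB1, the integrin β subunit shared by most matrix receptors, had 21386 and 18868 normalized counts in SB, 51900 and 47743 at 3 days and 51760 and 54880 at 7 days. LIMS1 (PINCH), an adaptor at focal adhesions, had 2230 and 2192 in SB, 6129 and 5538 at 3 days and 5580 and 5981 at 7 days. PLEK2, a pleckstrin homology protein that acts on the actin cytoskeleton, had 1604 and 1200 in SB, 5833 and 6150 at 3 days and 5963 and 5916 at 7 days. For all 3 genes the 3-day and 7-day ranges overlapped, and the 95% interval of the difference stayed within 0.3 on the log2 scale.

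PDLIM7, a PDZ and LIM protein of actin filaments, had 1848 and 1395 in SB, 4974 and 6723 at 3 days and 6966 and 5421 at 7 days. DAAM1, a formin, had 525 and 414 in SB, 1260 and 1108 at 3 days and 973 and 1074 at 7 days. FHOD1, another formin, had 2531 and 2755 in SB, 5647 and 6991 at 3 days and 7953 and 6585 at 7 days. PDLIM7 and FHOD1 varied more between the libraries of a TGFβ group than between the days, and DAAM1 was slightly lower in both 7-day libraries. BASP1, a membrane-bound protein enriched in growth cones, had 3045 and 2085 in SB, 6182 and 6047 at 3 days and 4997 and 4938 at 7 days, the most negative difference between the days among the members. Of the 111 tested focal adhesion and actin genes, 53 were called higher and 11 lower at 3 days, while 16 were called higher and 32 lower at 7 days than at 3 days. The median difference between the days over the list was -0.12 on the log2 scale, against 0.02 over all genes tested.

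Less familiar structural members rose as well. MYO7B, an unconventional myosin of the brush border, was listed at 0 in both SB libraries. It had 71 and 113 normalized counts after 3 days and 105 and 83 after 7 days, so no fold against SB is given. Its difference of 6.501 on the log2 scale depends on the added 1. PKP1, a plakophilin of desmosomes, had 23 and 21 in SB, 115 and 133 at 3 days and 144 and 134 at 7 days. FLRT3, a leucine-rich repeat adhesion protein, had 83 and 37 in SB, 489 and 500 at 3 days and 589 and 591 at 7 days. PKP1 and FLRT3 were higher in both 7-day libraries than in either 3-day library. CEP170, a protein of the centrosome and microtubules, had 5139 and 5431 in SB, 14147 and 13516 at 3 days and 12314 and 12566 at 7 days.

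Transcription factors among the members included the EMT factor SNAI2 (SLUG), a repressor of epithelial genes. Its normalized counts were 1640 and 1125 in SB, 4996 and 4621 at 3 days and 4227 and 4418 at 7 days. KLF7, a Krüppel-like factor, had 935 and 938 in SB, 3504 and 3115 at 3 days and 2772 and 2803 at 7 days. HIC1, a zinc finger repressor, had 54 and 47 in SB, 214 and 348 at 3 days and 387 and 274 at 7 days. It shares 2419 exonic bases with the more abundant SMG6 on the opposite strand, and the library kit does not mark strand. SNAI2 and KLF7 were a little lower in both 7-day libraries and HIC1 overlapped. Of the 44 tested EMT, SOX, RUNX and KLF factors, 16 were called higher and 7 lower at 3 days, and 4 rose early and went on rising. LHX1, a homeobox factor, had 791 and 743 in SB, 2245 and 2523 at 3 days and 2617 and 2440 at 7 days. HIVEP3, a large zinc finger protein, had 766 and 703 in SB, 1996 and 2287 at 3 days and 2063 and 1898 at 7 days.

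FOS, a subunit of AP-1 and an immediate early gene, met the rule by its means and not by its replicates. Its libraries had 194 and 122 normalized counts in SB, 362 and 423 at 3 days and 991 and 140 at 7 days. The 7-day libraries lay on both sides of the 3-day ones, and replicate 2 was within the SB range. The difference between the days was -0.07 with a 95% interval from -1.42 to 1.28, the widest of any member. Against SB, FOS had an adjusted p of 0.127 at 3 days and 0.101 at 7 days (limma).

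Cell cycle genes were few. CDKN1A, the CDK inhibitor of the p53 and TGFβ responses, had 1253 and 1184 in SB, 3125 and 3365 at 3 days and 3840 and 3530 at 7 days. E2F7, an atypical E2F that represses E2F targets, had 6151 and 4634 in SB, 12633 and 11956 at 3 days and 12023 and 11837 at 7 days. CDKN1A was higher in both 7-day libraries and E2F7 overlapped between the days. CDKN1A was the only member among the 29 tested cell cycle inhibitors and regulators of the first gap phase, of which 7 were called higher and 6 lower at 3 days. TP53I3, a p53-induced oxidoreductase, had 578 and 532 in SB, 2086 and 2079 at 3 days and 1804 and 1751 at 7 days.

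**Figure D3:**
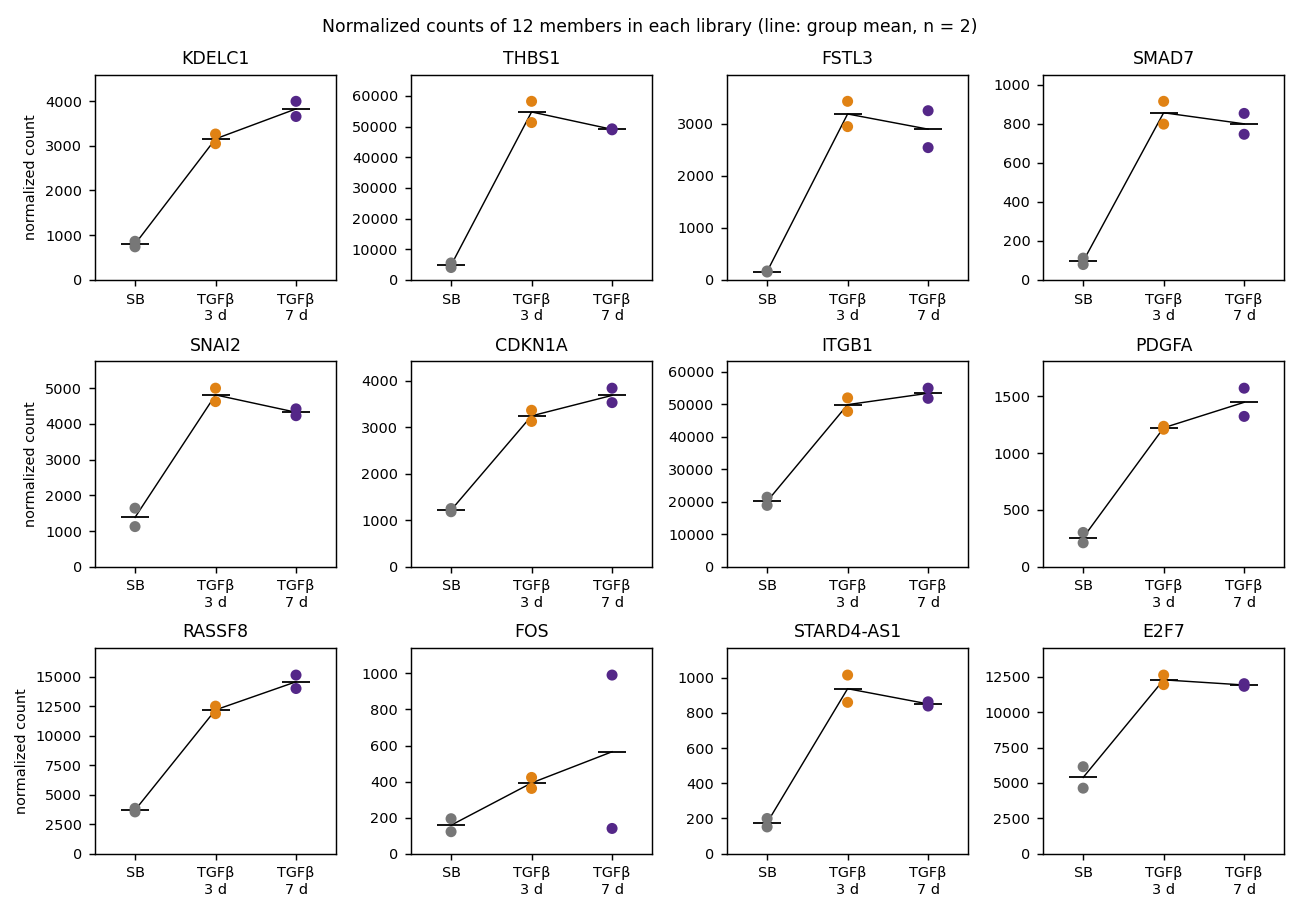
Normalized counts of 12 members in each library (points, 2 per group) with the group means joined by a line; the y axes start at 0 and differ between genes. KDELC1, CDKN1A, PDGFA and RASSF8 have both 7-day points above both 3-day points, THBS1 and SNAI2 have both below, and the 7-day points of FOS lie far apart.

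Signalling enzymes formed a further group. SPHK1, the kinase that makes sphingosine 1-phosphate, had 115 and 72 in SB, 1063 and 1382 at 3 days and 1483 and 1052 at 7 days. PIK3CD, the delta catalytic subunit of PI3K, had 100 and 99 in SB, 408 and 483 at 3 days and 430 and 386 at 7 days. MAP3K14 (NIK), the kinase of the noncanonical NF-κB pathway, had 283 and 249 in SB, 567 and 683 at 3 days and 630 and 488 at 7 days. In SPHK1, PIK3CD and MAP3K14 the 3-day and 7-day ranges overlapped. PPP1R13L (iASPP), an inhibitor of p53, had 107 and 98 in SB, 228 and 279 at 3 days and 255 and 212 at 7 days. Of the 58 tested regulators of MAPK, PI3K and kinase signalling, 24 were called higher and 15 lower at 3 days, and 4 were members against 2 that went on rising.

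Of the 51 tested G protein-coupled receptors and G protein regulators, GNG11 was the only member, while 8 rose early and went on rising, and 17 were called higher and 10 lower at 3 days. RAP1GAP, which is on no list and turns off the GTPase RAP1, had 102 and 105 in SB, 607 and 725 at 3 days and 684 and 609 at 7 days. GNG11, a G protein γ subunit, had 674 and 540 in SB, 1910 and 1904 at 3 days and 1999 and 2056 at 7 days. RAP2B, a RAS-related GTPase, had 2981 and 2114 in SB, 6151 and 6050 at 3 days and 5460 and 5691 at 7 days. The TGFβ ranges of RAP1GAP overlapped, while both 7-day libraries of GNG11 were above and both of RAP2B below the 3-day libraries, differences that did not pass the test. TBC1D1, a RAB GTPase-activating protein, had 1054 and 1088 in SB, 2551 and 2498 at 3 days and 2450 and 2473 at 7 days. Its 95% interval for the difference between the days ran from -0.23 to 0.16. SH2D2A, an adaptor better known from T cells, had 23 and 41 in SB, 165 and 221 at 3 days and 197 and 167 at 7 days.

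Enzymes of lipid and nucleotide metabolism included LPCAT2, which makes phosphatidylcholine from its lyso form, with 1450 and 1220 in SB, 4604 and 4105 at 3 days and 4576 and 5044 at 7 days. DGKI, a diacylglycerol kinase, had 213 and 189 in SB, 771 and 801 at 3 days and 715 and 766 at 7 days. CDA, cytidine deaminase of the pyrimidine salvage pathway, had 556 and 415 in SB, 1570 and 1795 at 3 days and 1724 and 1538 at 7 days. Of these 3 genes, DGKI alone had TGFβ ranges that did not overlap. INPP4B, a phosphoinositide phosphatase, had 454 and 441 in SB, 1509 and 1497 at 3 days and 1584 and 1581 at 7 days, with less than 0.05 (log2) between the libraries of any group.

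Transporters and channels were SLC26A2, a sulfate transporter, with 2398 and 2972 in SB, 7013 and 6451 at 3 days and 5963 and 6322 at 7 days, SLC22A4 and SCN9A. SLC22A4, a transporter of ergothioneine and carnitine, had 144 and 104 in SB, 301 and 343 at 3 days and 333 and 376 at 7 days. SCN9A, a voltage-gated sodium channel subunit, had 49 and 58 in SB, 137 and 119 at 3 days and 152 and 159 at 7 days. SLC26A2 was lower in both 7-day libraries than at 3 days, SCN9A was higher in both, and SLC22A4 overlapped, but none of the 3 differences between the days passed the test (limma, adjusted p = 0.366, 0.294 and 0.588). Members on no list included CCDC69, with 250 and 239 in SB, 1141 and 1235 at 3 days and 1215 and 1200 at 7 days. CCDC50, an effector of EGF receptor signalling, had 4938 and 4688 in SB, 11458 and 10923 at 3 days and 11974 and 12555 at 7 days. Of the 77 members, 29 were on at least 1 of the 18 role lists written by hand.

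Among the remaining members, NLRP1, an inflammasome sensor, had 186 and 228 in SB, 629 and 699 at 3 days and 827 and 787 at 7 days. PINK1, a kinase of mitochondrial quality control, had 113 and 104 in SB, 312 and 333 at 3 days and 412 and 364 at 7 days. FAM83A-AS1, an antisense lncRNA, had 77 and 87 in SB, 266 and 266 at 3 days and 337 and 311 at 7 days. All 3 were higher in both 7-day libraries than in either 3-day library. Further members were LSAMP, PTPRR, PDE4C, SYNC, VEPH1, MIR22HG, CCDC19 (now CFAP45), SH2D4A, CAPRIN2, ACOT11, KBTBD11, CPM, IFFO1, MAST4 and CRIP2. Their 3-day means were higher than SB by between 1.27 (CRIP2) and 2.41 (LSAMP) on the log2 scale, their differences between the days ran from -0.22 (CPM) to 0.25 (PTPRR), and their mean normalized counts from 52.3 (ACOT11) to 3190.5 (CAPRIN2). The SB libraries were far apart for KBTBD11, at 55 and 144, and for PDE4C, at 8 and 23.

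The EMT signature was taken as a gene list from the study's supplementary material. Of its 45 genes, 7 were members, among them BASP1, SNAI2 and THBS1, and 11 rose early and went on rising. The study's methods credit their EMT signature to an earlier publication. Of the 45, 42 were called higher and 0 lower at 3 days (limma), against 14.9% and 14.0% of all tested genes. All 45 passed the filter on low values, while 109 of the 164 genes on the study's quiescence list did. Whether the 45 were chosen with these data in view is not known, so nothing further is read from this share.

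By their gene models the members included 68 protein-coding genes, 6 long noncoding RNAs (lncRNAs) and 1 transcribed processed pseudogene. LINC01137 has no gene model in the annotation used, and LINC01279 was matched to that of CCDC80, a protein-coding gene, because the gene table lists it as a synonym. The lncRNAs and the pseudogene by model were 9.09% of the members (11.7% with both LINC symbols counted as noncoding), against, by model alone, 1.99% of the 251 genes that went on rising, 6.67% of the 45 that fell back and 5.66% of the other tested genes. The library kit does not mark strand, so reads from the exons that an antisense RNA shares with its partner cannot be told apart. STARD4-AS1 had 152 and 200 normalized counts in SB, 1015 and 860 at 3 days and 839 and 863 at 7 days. It lies on chromosome 5 of GRCh37 from 110846094 to 111075423 and shares 2115 exonic bases with NREP on the opposite strand, a gene that was 1.87 (log2) higher at 3 days than in SB and missed the plateau window at 0.301. The partners of these other antisense members also had higher 3-day means: PAX8-AS1 shares 1651 exonic bases with PAX8 (by 1.36), TRHDE-AS1 shares 1085 with TRHDE (by 2.17), and FAM83A-AS1 shares 125 with FAM83A (by 1.46).

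PAX8-AS1 had 49 and 16 in SB, 156 and 153 at 3 days and 138 and 183 at 7 days. STXBP5-AS1 had 43 and 32 in SB, 248 and 201 at 3 days and 204 and 232 at 7 days, and its partner STXBP5, with 202 shared bases, was higher by 0.40. Both had overlapping TGFβ ranges. TRHDE-AS1 had 80 and 47 in SB, 190 and 196 at 3 days and 175 and 166 at 7 days. LINC01137 had 56 and 60 in SB, 225 and 271 at 3 days and 276 and 244 at 7 days. No position, GC content or promoter of its own is given for LINC01279. It had 59 and 75 in SB, 196 and 158 at 3 days and 197 and 196 at 7 days. CCDC80, a secreted matrix protein, had 1098 and 1492 in SB, 3442 and 3345 at 3 days and 3012 and 2902 at 7 days. The pseudogene RPLP0P2 is a copy of RPLP0. The study assigned uniquely mapped reads to genes, so reads that match both copies equally would not be counted. Whether reads were placed on the wrong copy was not tested. RPLP0P2 had 36 and 32 in SB, 111 and 122 at 3 days and 122 and 100 at 7 days, while RPLP0, at 39761 to 67729 normalized counts, was highest in SB. In all, 21 members share exonic bases with a gene of the table on the opposite strand, and the same limit holds for the protein-coding ones. HIC1 shares 2419 bases with SMG6, at 1363 to 3093 normalized counts and higher by 0.83 at 3 days. SYNC shares 2160 with RBBP4, at 4306 to 5345 and different by -0.20. The part of such reads in the values of these members was not tested. On the chromosome, TFPI2 and GNG11 lie 30982 bases apart on chromosome 7 and CDA and PINK1 lie 14555 bases apart on chromosome 1.

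How flat the plateau was could be stated only within the spread between libraries. The difference between 7 and 3 days ran from -0.30 to 0.28 (log2), as the rule demands, with 39 members higher and 38 lower at 7 days. The 95% interval of the difference included 0 for 73 members, but it reached a median of 0.33 to either side. For most members a change of the size of the window itself could therefore not be seen in this fit. The fit pools the spread of all 3 groups, SB included. Replicates 1 and 2 lay a median of 0.27 (log2, absolute) apart in SB for the members, 0.15 at 3 days and 0.10 at 7 days. With only the 4 TGFβ libraries fitted, 18 members had an unadjusted p under 0.05 (limma), against 4 in the main fit. What change those 4 libraries alone could show was not tested. In the main fit the whole interval lay within 0.3 either way for 8 members: CCDC69, TFPI2, PLEK2, INPP4B, LIMS1, ITGB1, TBC1D1 and E2F7. For 39 of the 77 members the 3-day and 7-day libraries did not overlap, against 69.1% of all genes tested. The rule bounds this difference, so nothing is read from the lower share.

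RASSF8, a RAS association domain protein linked to cell-cell junctions, was the 1 member called different between 7 and 3 days, where 33.2% of all tested genes were called. It lies on chromosome 12 from 26111165 to 26232825 and had 3842 and 3538 normalized counts in SB, 12494 and 11857 at 3 days and 13987 and 15126 at 7 days. The groups did not overlap in any pair. Its difference between the days was 0.26 ± 0.08 (log2, SE), with a 95% interval from 0.07 to 0.44 and an adjusted p of 0.0351 (limma). The rule bounds this contrast, so the low share of calls follows from the choice of members. KDELC1 (now POGLUT2), a glucosyltransferase of the endoplasmic reticulum, came next: it had 864 and 740 in SB, 3262 and 3046 at 3 days and 3654 and 3993 at 7 days, with an adjusted p of 0.0590. When only the 4 libraries of the compared groups were fitted, 6 members were called (BASP1, KDELC1, KLF7, RASSF8, SERPINB5 and TP53I3), where 38.8% of all tested genes were called.

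**Figure D4:**
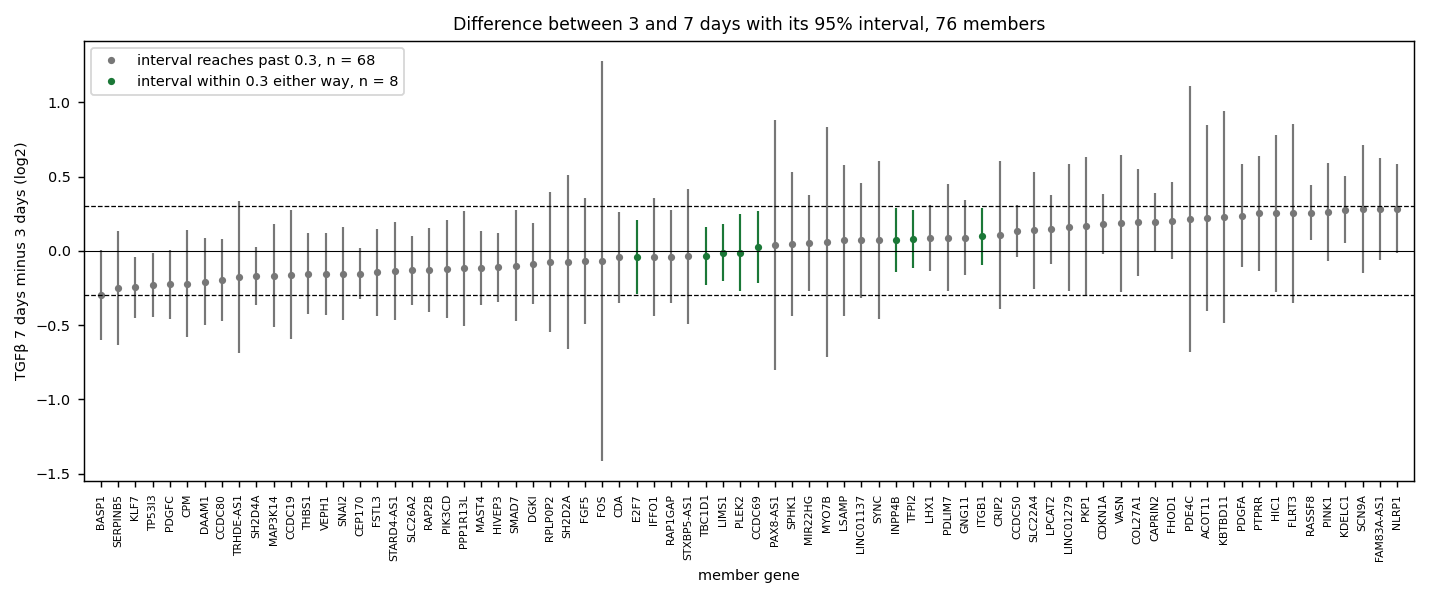
The 7-day mean minus the 3-day mean (log2, points) with its 95% interval from the limma fit (lines) for 76 members, in order of the difference; dashed lines mark the window of 0.3 that chose them. The 8 green intervals stay inside the window, and that of FOS runs from -1.42 to 1.28.

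Members near the thresholds had the following values, given without a test. Just inside the rise threshold were E2F7 (1.203), CCDC50 (1.217) and MAP3K14 (1.226), and just outside it CACNA2D1 (1.199), LRRC8C (1.194) and ARHGEF10 (1.192). At the plateau window, BASP1 (-0.2996), NLRP1 (0.2826) and FAM83A-AS1 (0.2824) were inside and SAP30L-AS1 (-0.3001), NREP (0.3011) and RASA1 (0.3016) outside. At the minimum mean, ACOT11 (52.3), PDE4C (53.7) and SYNC (60.0) were inside and CGB8 (43.8), LOC101059948 (38.2) and GIPR (37.2) outside.

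The spread between the TGFβ libraries was ordered by the GC content of the transcript. Across the 76 members with a value (LINC01279 with that of CCDC80), the difference replicate 2 minus replicate 1 had a Pearson correlation with GC content of 0.77 at 3 days, -0.42 at 7 days and 0.13 in SB. Over 11208 genes averaging 100 or more it was 0.74, -0.71 and 0.20. These are descriptions across genes, which are not independent replicates, and all points of a panel share the same pair of libraries. In 15 members replicate 2 was above replicate 1 by more than 0.2 at 3 days and below it by more than 0.2 at 7 days, and 0 members showed the opposite. These 15, which include FSTL3, SPHK1, VASN, HIC1, PDLIM7, FHOD1, COL27A1 and FOS, had a median GC content of 62.4%, against 43.7% in the other members. The part of GC content in the plateau was not tested. With the GC and length trend of each library taken out, 67 of the 77 still met the rule and 12 were called different between the days, where 44.6% of all tested genes were called.

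**Figure D5:**
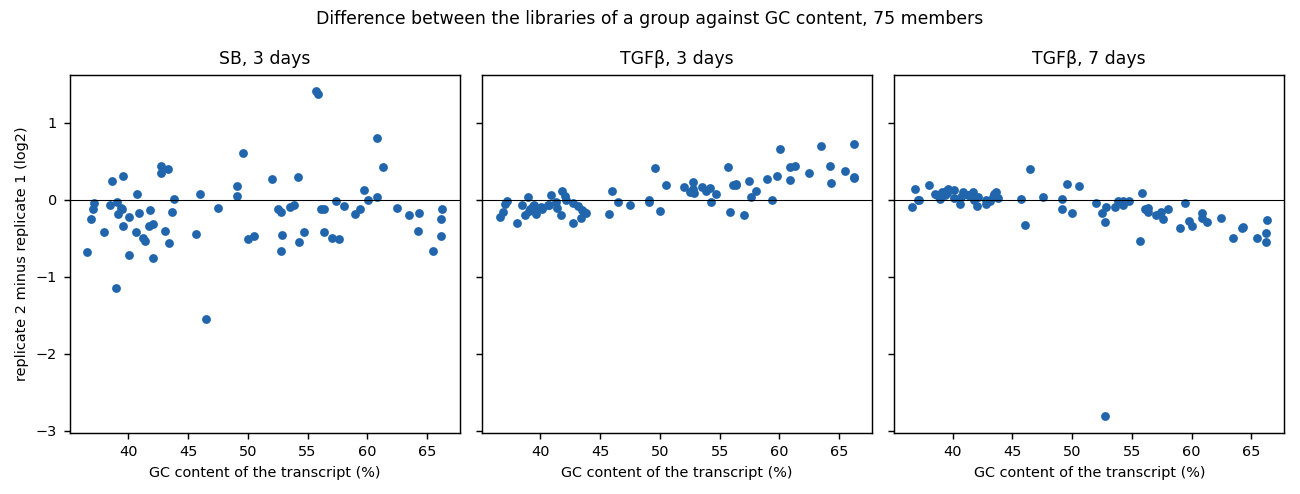
Each point is 1 of 75 members; the x axis is the GC content of its transcript in percent and the y axis replicate 2 minus replicate 1 in log2, in the SB, 3-day TGFβ and 7-day TGFβ groups. The points climb with GC content at 3 days and decline at 7 days; the low point at 7 days is FOS, at -2.81.

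As a class the members had a median transcript GC content of 49.4%, against 53.7% for the genes that went on rising, 45.4% for those that fell back and 47.8% for the other tested genes. Their median transcript length was 4576 bases, against 4683, 3265 and 3781 bases. These differences were not tested.

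Promoter sequences, taken from RefSeq on GRCh38.p14 as 250 bases before to 50 bases after the first listed start, were found for 59 of the 77 members, with 58 distinct promoters, since LINC01279 was given that of CCDC80. They were searched on both strands for short motifs of factors of the TGFβ response. CAGAC, the core of the SMAD-binding element, was in 49.2% of the members' promoters, 42.9% of those of all tested genes and 45.0% of all promoters; over the 58 distinct promoters it was in 48.3%. The SMAD palindrome GTCTAGAC was in 0 of 59 (0.163% of tested genes) and the AP-1 motif TGACTCA in 3.39% (3.34% of tested genes). The E-box CACCTG, which SNAI2 can bind, was in 23.7% of the members' promoters, 18.6% of those of tested genes and 20.6% of all promoters, and the TEAD motif GGAATG in 16.9%, 10.8% and 14.0%. The genes that went on rising held the E-box in 23.0% and the TEAD motif in 15.2% of their promoters, and those that fell back in 22.9% and 14.3%. A match is not a binding site, and no match says only that the letters are not in this window.

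To show what such promoters look like, the 250 bases before the start are given for SMAD7 and FLRT3, which rose by over 3 (log2) and hold CAGAC in this stretch, and for SERPINB5 and INPP4B, whose windows hold it most often. They were chosen after their values were seen, because no member met the rule written for printing. They run 5′ to 3′ on the strand of the gene, with CAGAC or its reverse complement in capitals.
SMAD7 (chr18:48950966-48951215, minus strand): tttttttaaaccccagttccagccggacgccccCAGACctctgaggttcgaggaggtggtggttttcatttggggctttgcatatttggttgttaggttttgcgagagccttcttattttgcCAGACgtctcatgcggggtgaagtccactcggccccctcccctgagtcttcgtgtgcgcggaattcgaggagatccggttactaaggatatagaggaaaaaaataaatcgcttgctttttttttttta
FLRT3 (chr20:14337613-14337862, minus strand): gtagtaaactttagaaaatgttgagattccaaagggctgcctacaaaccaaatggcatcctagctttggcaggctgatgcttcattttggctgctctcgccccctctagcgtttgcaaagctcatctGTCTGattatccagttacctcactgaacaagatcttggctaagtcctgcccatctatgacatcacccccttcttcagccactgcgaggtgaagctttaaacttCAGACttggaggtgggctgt
SERPINB5 (chr18:63476708-63476957, plus strand): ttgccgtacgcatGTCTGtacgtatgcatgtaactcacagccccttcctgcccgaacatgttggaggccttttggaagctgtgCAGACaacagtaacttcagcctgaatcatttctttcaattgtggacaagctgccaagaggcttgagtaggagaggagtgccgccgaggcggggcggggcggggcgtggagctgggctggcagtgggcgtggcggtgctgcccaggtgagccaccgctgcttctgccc
INPP4B (chr4:142405860-142406109, minus strand): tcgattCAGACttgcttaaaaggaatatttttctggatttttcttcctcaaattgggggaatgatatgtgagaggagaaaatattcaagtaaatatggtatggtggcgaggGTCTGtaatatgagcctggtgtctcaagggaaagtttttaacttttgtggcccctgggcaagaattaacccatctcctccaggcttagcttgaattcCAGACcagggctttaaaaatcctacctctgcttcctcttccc
In SMAD7 the matches begin 217 and 128 bases before the start, in FLRT3 123 and 20, in SERPINB5 237 and 167, and in INPP4B 244, 139 and 42. Above SB on the log2 scale, SMAD7 stood at 3.17 at 3 days and 3.07 at 7 days, FLRT3 at 3.13 and 3.39, SERPINB5 at 2.04 and 1.79, and INPP4B at 1.75 and 1.82.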

How the data were processed

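PolyA RNA of H2087-LCC cells was sequenced in 3 groups of 2 libraries (TruSeq RNA v2). The authors mapped read pairs to hg19 with STAR, counted reads on genes with HTSeq 0.6.1p1 and scaled the counts by library size. The submitters' processing notes also name FastQC 0.11.5 and DESeq2 3.4. The deposited values, recorded here under the unit score, are these normalized counts rounded to whole numbers, 21293 genes by 6 libraries. They are not raw counts, so no count model was fitted, and the depth in reads per gene is unknown. Values were taken as log2(value + 1).

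The 14395 genes averaging 10 or more entered a limma 3.58.1 fit (R 4.3.3, empirical Bayes with a trend), with group as the only term, 3 residual degrees of freedom, Benjamini-Hochberg adjustment at 0.05 over all genes tested. The fit was also run on simulated counts, with changes placed only in the 3-day group and read only against SB. That run held no GC trend and did not cover the difference between the days, so nothing is read from it. An exact permutation test of 2 libraries against 2 gives no p below 0.333, so none was run. Symbols were matched to GENCODE on GRCh37 (19737 of 21293), and promoters to RefSeq on GRCh38.p14 by symbol, with the first listed start of each gene. Part of the genes were named by a rule: members on the role lists, the 12 with the largest rise, the 12 with the highest mean, the 6 with the smallest and the 6 with the largest absolute difference between the days, and the 3 on either side of each threshold. Other members, such as TP53I3 and LHX1, were named outside this rule. The members and the lists were chosen with earlier results of these data known. The values of 1 member are not reported here; it stays in the counts over the members.

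Alternatives were a pseudocount of 0.5 or 5, other filters on low values, equal library totals, median-of-ratios size factors, upper-quartile scaling, a fit without the trend, a fit of only the libraries compared, a replicate block, leaving out each library, other thresholds of the rule and a promoter window of 250 bases. A GC and length correction (loess, span 0.5) and blocks over the 4 TGFβ libraries were added after seeing the data. Same-numbered libraries did not deviate together: the correlation of replicate 2 minus replicate 1 across 11389 genes was 0.21 between SB and 3 days, -0.65 between 3 and 7 days and -0.13 between SB and 7 days, so the numbers were not taken to pair the samples. Figures were drawn with matplotlib 3.10.9.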

Additional observations from a re-analysis of the deposited data

Results flagged for a closer look

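RASSF8 was taken up because its level at 7 days of TGFβ differed from that at 3 days in the test of that difference (limma, adjusted p = 0.0351), by 0.26 on the log2 scale, with both 7-day libraries (13987 and 15126 normalized counts) above both 3-day libraries (12494 and 11857). It was the 1 member called among 77, where 33.2% of all tested genes were called, and the rule that chose the members had already kept this difference below 0.3. Its transcript has a GC content of 39.5%.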

How the results depend on the processing

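The number of genes that met the rule stayed within 1.5 times 77 under the other pseudocounts, filters, scalings and plateau windows tried, and moved to 122 with a rise above 1.0 and to 49 with a rise above 1.5. Leaving out 1 library at a time gave 71 to 98 genes, of which 58 to 70 were among the 77. The lowest overlap came without 3-day replicate 2, and 40 members met the rule in all 6 cases. The counts of members called higher than SB stayed between 70 and 77 at 3 days and between 72 and 77 at 7 days under the alternatives tried. The lowest counts came without a filter on low values, where 1283 and 3308 of all 21293 genes were called higher at 3 and 7 days. In the main fit, 2149 and 3982 of the 14395 genes tested were called higher. FOS was called at 3 days when either 7-day library was left out.

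The count of members called different between 7 and 3 days (1 of 77) depended on the setting. It was 0 without a filter on low values, with median-of-ratios size factors and with limma without the trend (8, 6 and 3 members at an unadjusted p under 0.05), 2 with equal library totals, 6 with only the 4 libraries compared and 12 with the correction for GC content and length. Of all genes tested, 8.04%, 33.5%, 21.7%, 32.8%, 38.8% and 44.6% were called under these settings, in that order. Why the count depended on the setting was not tested. Leaving out 1 library leaves a lone library in its group, assumed to vary like the other groups, so only differences are given. With 1 library left out, the difference of FOS between the days ran from -1.48 to 1.34 (log2). It was negative without 7-day replicate 1 and positive without 7-day replicate 2. That of RASSF8 ran from 0.20 to 0.31. RASSF8 was higher at 7 days in every alternative tried.

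With the replicate number as a block, 77 and 77 members were called higher than SB at 3 and 7 days, where 2024 and 3815 of the 14395 genes tested were. Between the days 0 members were called (4 at an unadjusted p under 0.05), where 31.2% of all tested genes were called. Over the 4 TGFβ libraries alone, the replicate block gave 0 calls (27.8% of all genes tested) and the crossed pairing, added after seeing the data, 35 (61.7%). Neither the sample titles nor the study says whether same-numbered libraries belong together, so neither pairing was adopted. The shares of member promoters with a motif moved by less than their 95% binomial intervals with a window of 250 bases. That window lies inside the first one, so the shares could hardly differ and nothing is read from this. The spread of 2 libraries per group, with the SB pair included in the main fit, limits what differences between the days could be seen.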
